A study of Mus musculus with 4 samples.

Results

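Cholesterol synthesis and LXR target genes were followed in peritoneal macrophages from mice with or without a myeloid deletion of Setdb1, an H3K9 methyltransferase, in the presence and absence of lipid A. The set holds 31 genes in 4 roles, listed by name, namely 18 sterol synthesis enzymes, 4 regulators of the SREBP pathway, 6 LXR and efflux genes and 3 fatty acid synthesis genes. A gene was matched by its symbol to probe sets that the array annotation gives a single symbol, and where it had several, the brightest one, by mean log2 over all 4 arrays, stood for it. This gave 30 of the 31 genes out of 18193 genes in all, while Acat2 was not analysed here. Macrophages elicited with thioglycollate were taken from +/+:Setdb1 fl/fl mice (WT) and from LysM Cre/+:Setdb1 fl/fl mice (KO), both on C57BL6/J. The floxed Setdb1 alleles were therefore shared by both genotypes, and Cre under the LysM promoter, which is active in myeloid cells, was carried by the KO mice only. Cells received vehicle or lipid A, the part of LPS that TLR4 senses, for 4 h. The dose was 10 ng/ml in the series' design text and 10 µg/ml in the sample labels. There was 1 Affymetrix expression array for each of these 4 conditions, so that no difference has a replicate check and no p-value is given.

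Macrophages make cholesterol from acetyl-CoA through mevalonate and squalene. When sterols in the endoplasmic reticulum run low, the SREBP transcription factors are released to the nucleus and switch the enzymes on. When sterols are plentiful, oxidised sterols activate the nuclear receptor LXR, which turns on the transporters that pass cholesterol to lipoproteins and, through SREBP-1c, fatty acid synthesis. In macrophages this balance is best known from foam cells, and TLR4 ligands are known to alter it.

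Every one of the 30 genes had a signal at or above the array median on all 4 arrays, so that each fold of a member is a measured ratio rather than a bound. Signals are linear intensities of a probe set, and the median over 45037 probe sets lay between 65.1 and 84.2 on the 4 arrays. Differences are log2 ratios of 2 arrays, and a gene was counted as different when it passed 2-fold with its higher signal at or above the array median. For scale, the SD of these log2 ratios among probe sets of 1 gene was between 0.39 and 0.46, a technical yardstick without mice or arrays in it. Over all detected genes the median log2 difference was -0.082 for lipid A over vehicle in WT, -0.20 for lipid A over vehicle in KO, 0.097 for KO over WT under vehicle and -0.013 for KO over WT under lipid A. Scaling matters here, because centring each array on its median moved these 4 medians to -0.28, -0.046, -0.27 and -0.031. The share of higher genes among all genes past 2-fold moved with it from 56.9% to 44.3% for the WT response and from 64.3% to 42.1% for KO over WT under vehicle, the latter being 52.5% after quantile normalization.

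The cells carried the macrophage markers on every array, and other cell types differed between the genotypes. All 7 macrophage markers reached the median on each array, with summed signals of 159816 to 205675, although Adgre1, which encodes F4/80, gave 10187 and 9216 in WT and 3726 and 6633 in KO. The 4 measured B cell markers summed to 241 to 335 in WT and to 3586 to 3793 in KO, where Ms4a1 made up most of the sum and Pax5 reached the median only in KO vehicle. Of 6 genes of resident large peritoneal macrophages the sums were 506 to 515 in WT and 3026 to 3205 in KO, with Timd4 and Alox15 below the median on all 4 arrays. Neutrophil markers summed to 1844 to 1905 in WT and 713 to 864 in KO, most of it from S100a8, while S100a9 was below the median on all 4 arrays. T and NK cell markers summed to 169 to 231 in WT and 469 to 492 in KO, with Ncr1 below the median throughout. The 7 mesothelium and fibroblast markers summed to 676 to 780 in WT and 435 to 601 in KO, but did not move together. Col3a1 gave 370 and 251 in WT and 234 and 122 in KO, and Pdgfra 190 and 126 against 44.1 and 47.0. Msln ran the other way, with 6.70 and 45.2 in WT and 119 and 83.3 in KO. Col1a1 was higher in KO under vehicle only, and Upk3b and Krt19 were below the median on all 4 arrays. Of the cycling markers, Mki67 gave 75.7 and 815 in WT vehicle and lipid A and 55.3 and 2960 in KO, whereas Top2a went from 82.6 to 57.9 and from 95.2 to 53.8, and Birc5 was below the median on all 4 arrays. The part of these cells in any KO over WT difference below was not tested, and in such bulk samples fewer cells of a type cannot be told apart from less RNA per cell. Setdb1 gave 589 and 521 in WT and 346 and 386 in KO, from a probe set whose position relative to the deleted part is not known here, so that it does not check the labels.

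Promoter sequences are shown for 5 members that stand for the groups compared, 1 early and 1 late enzyme of sterol synthesis, an efflux transporter, the main enzyme of fatty acid synthesis and an SREBP gene. They are the 250 bases before the transcription start in RefSeq on GRCm38.p6, printed in the direction of transcription. Hmgcs1 lies on the plus strand (chr13:119690101-119690350), Dhcr7 on the plus strand (chr7:143829964-143830213, 1 of 3 promoters), Abca1 on the minus strand (chr4:53159896-53160145), Fasn on the minus strand (chr11:120824548-120824797) and Srebf1 on the minus strand (chr11:60210472-60210721, 1 of 3 promoters). Where a gene had 3, the one with the most matches is shown. Capitals mark every match, on either strand, to the motifs described next, other than the shortened sterol element.
Hmgcs1: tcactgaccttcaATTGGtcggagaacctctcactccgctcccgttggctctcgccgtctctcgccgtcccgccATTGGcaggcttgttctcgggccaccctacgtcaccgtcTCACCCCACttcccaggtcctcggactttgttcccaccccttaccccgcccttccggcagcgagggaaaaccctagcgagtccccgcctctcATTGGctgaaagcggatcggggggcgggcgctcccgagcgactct
Dhcr7: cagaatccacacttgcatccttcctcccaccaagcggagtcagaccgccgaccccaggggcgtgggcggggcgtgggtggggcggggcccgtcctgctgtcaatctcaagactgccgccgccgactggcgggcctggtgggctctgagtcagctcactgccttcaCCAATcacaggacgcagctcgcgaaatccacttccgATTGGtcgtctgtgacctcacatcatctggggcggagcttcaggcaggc
Abca1: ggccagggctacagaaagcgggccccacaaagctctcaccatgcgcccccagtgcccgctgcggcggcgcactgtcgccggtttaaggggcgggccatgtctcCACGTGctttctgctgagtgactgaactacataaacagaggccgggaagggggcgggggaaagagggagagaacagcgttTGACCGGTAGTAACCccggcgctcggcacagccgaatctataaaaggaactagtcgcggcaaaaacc
Fasn: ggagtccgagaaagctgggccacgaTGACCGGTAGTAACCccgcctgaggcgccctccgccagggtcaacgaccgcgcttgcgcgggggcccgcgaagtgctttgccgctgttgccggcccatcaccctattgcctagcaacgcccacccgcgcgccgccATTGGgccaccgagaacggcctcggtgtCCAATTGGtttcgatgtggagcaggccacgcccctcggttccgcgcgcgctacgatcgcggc
Srebf1: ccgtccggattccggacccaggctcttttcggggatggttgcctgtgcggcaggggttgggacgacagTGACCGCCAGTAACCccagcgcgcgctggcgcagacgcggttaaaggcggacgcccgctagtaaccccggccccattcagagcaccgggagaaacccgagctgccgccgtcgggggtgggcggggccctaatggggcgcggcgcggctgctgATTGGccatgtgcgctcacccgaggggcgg

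The motifs were searched on both strands from 250 bases before to 50 bases after the start, in 24 members and in all 27025 genes of the promoter table. The inverted CCAAT box, spelled ATTGG and bound by the factor NF-Y, was present in 20 of the 24 members and in 41.1% of all genes. It was found in 14 of 15 sterol synthesis enzymes, all but Acat2, and in 2 of 5 LXR and efflux genes, Mylip and Lpcat3. Hmgcs1 has 3 copies in its printed stretch and Dhcr7 has 2. A sterol regulatory element, spelled TCACNCCAC and bound by SREBP, was found in Hmgcs1 alone, 137 bases before the start, against 1.44% of all genes. Its shorter core CACNCCAC, which the longer spelling contains, was found in Acat2, Hmgcs1 and Insig1 and in 7.12% of all genes. The E-box CACGTG, a palindrome, occurred in Hsd17b7, Sc5d, Dhcr7, Insig1 and Abca1 and in 8.09% of all genes, and that of Abca1 lies 147 bases before the start.

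A classical LXR response element, written as AGGTCA repeated after a spacer of 4 bases, was found in 0 of the 24 members and in 0.0148% of all genes. This exact spelling allows no mismatch and matched 4 genes in all, so its absence says nothing about looser forms. Another spelling, TGACC and AGTAACC spaced by 3 bases, was taken from the printed promoters and added after the sequences were seen. It was found in Abca1, Fasn and Srebf1, out of 5 genes or 0.0185% in all. Its presence in the printed promoters was fixed in advance. On the other strand, the stretch at each of these matches reads GGGTTA and CGGTCA spaced by 4 bases, a looser form of the AGGTCA repeat. The added spelling also counted among the matches by which the Srebf1 promoter was chosen. It begins 67 bases before the start in Abca1, 225 in Fasn and 182 in Srebf1, and Abca1 and Fasn share a run of 18 bases there, tgaccggtagtaaccccg. Such matches describe letters and are not evidence of binding in these cells.

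With lipid A, few of the 30 genes passed 2-fold in either genotype. In WT, 0 were over 2-fold higher and 3 were lower (Abcg1, Fasn and Scd2, or 10% of the members), against 11.8% and 8.94% of all detected genes. In KO, Abca1 was higher and Dhcr7, Abcg1 and Scd2 were lower, against 11.2% and 16.0% of all detected genes. At 1.5-fold, 1 member was higher and 7 were lower in WT (3.33% and 23.3%), against 18.2% and 18.9% of all genes. In KO, 1 was higher and 8 were lower (3.33% and 26.7%), against 17.7% and 29.7%. The members' share of lower genes was thus somewhat above the background in WT and below it in KO. Their share of higher genes was below the background in both genotypes. Of the 30 genes, 24 had a log2 difference below 0 in each genotype, and the medians of the 30 were -0.20 in WT and -0.33 in KO. All detected genes were also shifted below 0, with medians of -0.082 and -0.20, and their share below 0 was not counted.

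Between the genotypes the members were spread to both sides. Under vehicle, Tm7sf2 was over 2-fold higher in KO and Abca1 was lower, against 11.1% and 6.17% of all detected genes. Under lipid A, Scd1 was higher in KO and Dhcr7, Abca1 and Scd2 were lower, against 10.6% and 10.3%. At 1.5-fold the counts were 4 higher and 1 lower under vehicle, against 20.0% and 11.3% of all genes, and 3 higher and 4 lower under lipid A, against 17.8% and 19.1%. Above and below 0 the members numbered 19 and 11 under vehicle, and 15 and 15 under lipid A. The medians of all detected genes there were 0.097 and -0.013, and their shares above and below 0 were not counted. In all, 7 members passed 2-fold in at least 1 of the 4 comparisons and 23 passed it in none.

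**Figure D1:**
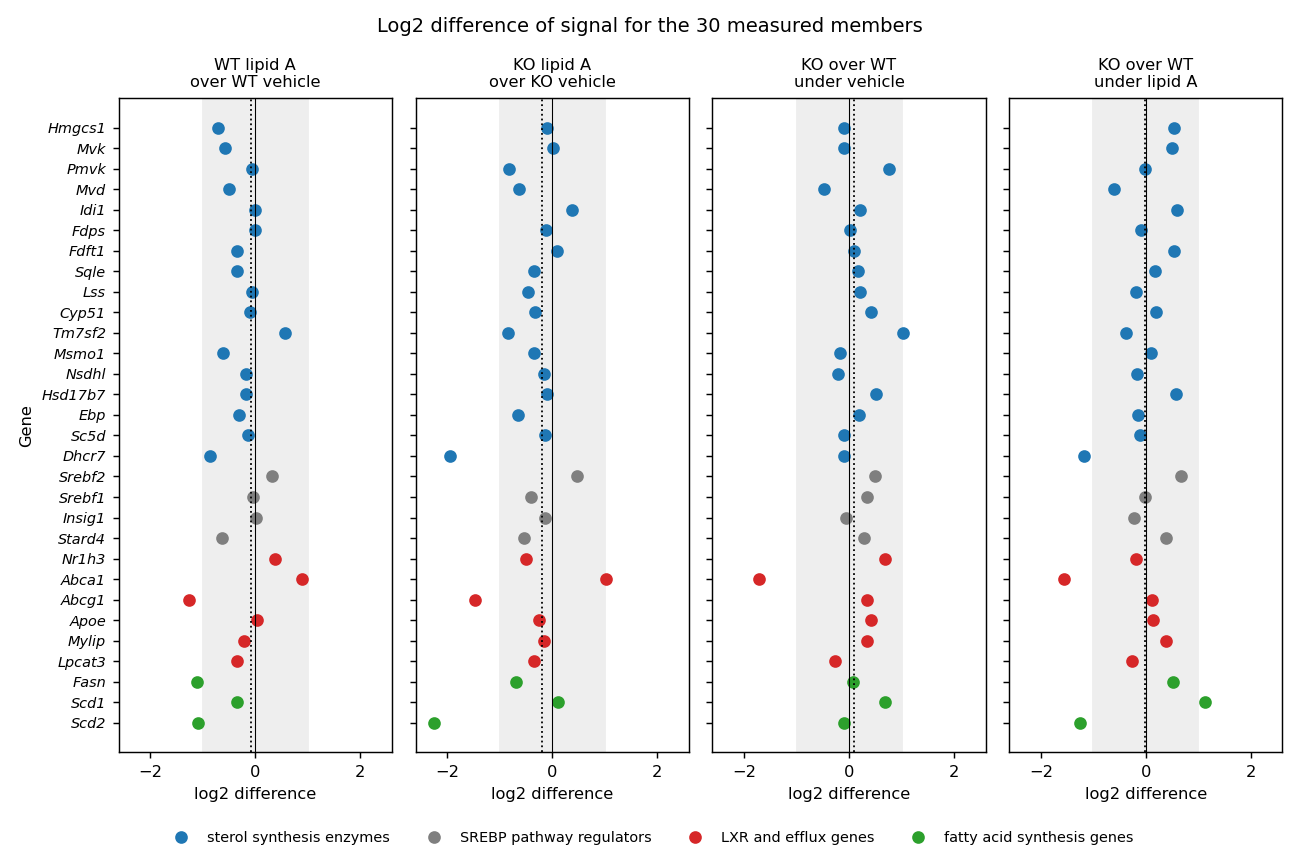
Log2 difference of signal for each of the 30 measured members (rows, coloured by role) in the 4 comparisons (panels), with the grey band spanning 2-fold in either direction and the dotted line at the median of all detected genes. Most points lie inside the band, and the points outside it are Dhcr7, Abca1, Abcg1, Fasn, Scd1, Scd2 and, just past the edge under vehicle, Tm7sf2.

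Among the sterol synthesis enzymes, by their brightest probe sets, Dhcr7 alone passed 2-fold with lipid A, in KO. By its medians and its share past 1.5-fold, the group was near the background of all genes. In WT, 16 of the 17 measured enzymes had a lower signal with lipid A, with a median log2 difference of -0.18 and a range of -0.86 to 0.57, and the median of all detected genes was -0.082. In KO, 14 of 17 were lower with a median of -0.32, beside -0.20 for all genes. The share of all detected genes below 0 was not counted, so these counts of lower enzymes have no background beside them. Past 1.5-fold, 17.6% of the enzymes were lower in WT and 29.4% in KO, close to the 18.9% and 29.7% of all detected genes. Between KO and WT the median of the enzymes was 0.093 under vehicle and -0.012 under lipid A, close to that of all genes.

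Dhcr7, the reductase of the last step to cholesterol, gave 1004 with vehicle and 552 with lipid A in WT, and 937 and 243 in KO. Both vehicle arrays were thus alike and both lipid A arrays lower, with KO lipid A the lowest of the 4. The signal was 1.82-fold lower with lipid A in WT and 3.85-fold lower in KO. Under lipid A it was 2.27-fold lower in KO than in WT, whereas the 2 vehicle arrays differed by 1.07-fold. Dhcr7 has 1 probe set, so no second probe set bears on these values.

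Tm7sf2, a sterol reductase of the middle of the pathway, gave 213 with vehicle and 317 with lipid A in WT, and 436 and 243 in KO. Its signal was higher with lipid A in WT and lower with lipid A in KO, with log2 differences of 0.57 and -0.84. Under vehicle it was 2.04-fold higher in KO, just past the limit, and that call was lost with 4 other settings, among them both centred scalings and quantile normalization. Tm7sf2 also has 1 probe set.

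The 6 enzymes of the mevalonate arm, from Hmgcs1 to Fdps, had a median log2 difference with lipid A of -0.28 in WT and -0.099 in KO. In WT only Hmgcs1 was past 1.5-fold lower, while Pmvk, Idi1 and Fdps, at -0.052, -0.0024 and -0.0042, lay above the median of all genes. Hmgcs1, the synthase that forms HMG-CoA, gave 9919 with vehicle and 6066 with lipid A in WT, and 9305 and 8751 in KO. WT lipid A was therefore the lowest of the 4 arrays, 1.64-fold below WT vehicle, while the KO arrays differed by 1.06-fold. Mvk, which phosphorylates mevalonate, was likewise lowest in WT lipid A, with 308 and 206 in WT and 288 and 292 in KO. Pmvk, the next kinase, differed from both, with 454 and 438 in WT and 767 and 435 in KO, KO vehicle being the high array. Mvd, the decarboxylase that follows, was 1.42-fold lower with lipid A in WT and 1.55-fold lower in KO, and KO was the lower genotype under both treatments. Idi1, the isomerase, gave 3364 and 3359 in WT and 3870 and 5057 in KO, 1.51-fold higher in KO under lipid A. Fdps, the synthase of farnesyl pyrophosphate, varied the least of all members, between 3470.1 and 3743.

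The 11 enzymes from squalene onwards had medians of -0.18 in WT and -0.34 in KO with lipid A, and of 0.18 and -0.10 for KO over WT under vehicle and under lipid A. Fdft1, which makes squalene, lay between 2914 and 4224, with WT lipid A the lowest array. Sqle, which oxidises squalene, lay between 2085 and 2981, and Lss, which closes the rings to lanosterol, between 914 and 1259. Cyp51, the lanosterol demethylase, was highest in KO vehicle, with 3615, and lowest in WT lipid A, with 2525. The later steps remodel the sterol nucleus, and apart from Tm7sf2 and Dhcr7 their enzymes also stayed under 2-fold by their brightest probe sets. Msmo1, which oxidises the methyl groups, was 1.53-fold lower with lipid A in WT and 1.27-fold lower in KO. Its partners Nsdhl and Hsd17b7 lay between 1032 and 1322 and between 381 and 610. Ebp, the sterol isomerase, was 1.24-fold lower with lipid A in WT and 1.57-fold lower in KO, and Sc5d, the desaturase, lay between 3878 and 4560.2. Sc5d was, after Fdps, the enzyme with the smallest largest difference, 0.13 on the log2 scale.

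**Figure D2:**
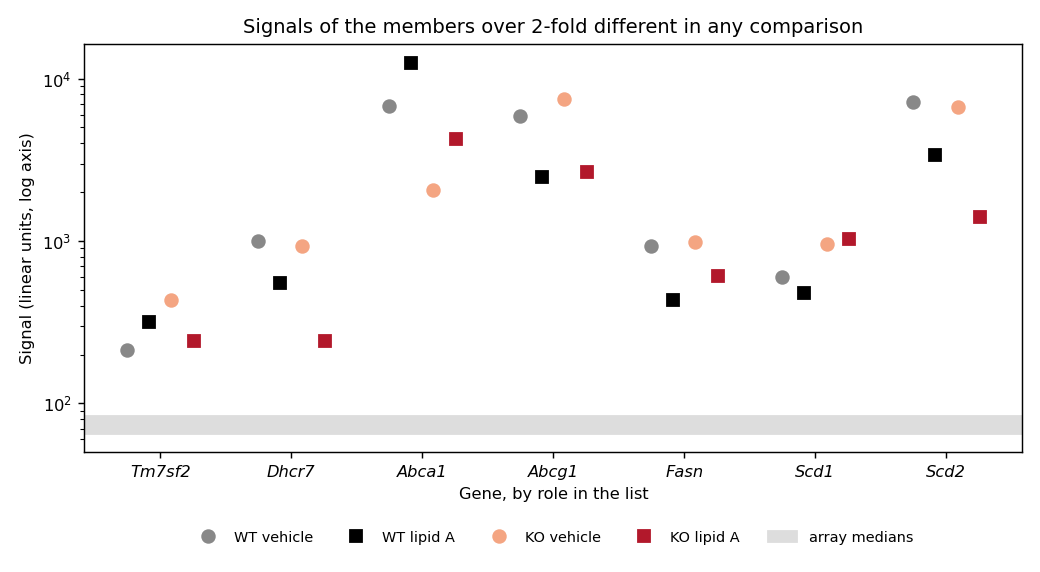
Signal on each of the 4 arrays for the 7 members that passed 2-fold in any comparison, on a log axis, with 1 point per array and the grey band spanning the array medians of 65.1 to 84.2. Abca1 is lower in both KO arrays than in both WT arrays, Abcg1 is lower in both lipid A arrays, and Dhcr7 and Scd2 are lowest in KO lipid A.

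The regulators of the SREBP pathway stayed under 2-fold in every comparison. Srebf2, which encodes SREBP-2, gave 742 with vehicle and 921 with lipid A in WT, and 1051 and 1469.9 in KO. It was thus higher with lipid A in both genotypes and higher in KO under both treatments, by 1.60-fold under lipid A, and a second probe set had the same order, with 303 and 368 in WT and 412 and 509 in KO. Srebf1, which encodes SREBP-1, lay between 1777 and 2354, the highest value being that of KO vehicle. Insig1, which holds SREBP back in the endoplasmic reticulum, varied between 4369 and 5098, or 1.17-fold. Stard4, which carries sterols between membranes, was 1.55-fold lower with lipid A in WT and 1.46-fold lower in KO by its brightest probe set. A further probe set of Stard4 gave 612 and 454 in WT but 576 and 735 in KO, 1.28-fold higher with lipid A. Another gave 548 and 339 in WT and 620 and 394 in KO, lower with lipid A in both genotypes. The direction of the KO response of Stard4 thus rests on the choice of probe set. The medians of these 4 genes were -0.014 and -0.27 for lipid A in WT and KO, and 0.32 and 0.18 for KO over WT under vehicle and lipid A.

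Both main cholesterol transporters differed past 2-fold, and in different comparisons. Abca1, which loads cholesterol onto lipid-poor apolipoprotein A-I, gave 6766 with vehicle and 12559 with lipid A in WT, and 2074 and 4237 in KO. Both KO arrays were below both WT arrays, and the lipid A array was the higher one in each genotype. With lipid A, Abca1 was 1.86-fold higher in WT and 2.04-fold higher in KO. It was 3.26-fold lower in KO than in WT under vehicle and 2.96-fold lower under lipid A, and its ratio of highest to lowest signal, 6.06, was the largest among the 30 genes. Macrophage markers also differed between the genotypes. Besides Adgre1, given above, Mertk was 1.46-fold lower in KO under vehicle and 1.78-fold lower under lipid A, and Csf1r was 1.14-fold and 1.58-fold lower. Cd68 and Lyz2 were 1.10-fold to 1.26-fold lower, Itgam was 1.21-fold higher under vehicle and 1.06-fold lower under lipid A, and Cd14 was 1.03-fold and 1.97-fold higher. Their part in the Abca1 difference was not tested.

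Abcg1, which passes cholesterol to HDL, gave 5904 with vehicle and 2461 with lipid A in WT, and 7440.4 and 2679 in KO. It ran opposite to Abca1 with lipid A, being 2.40-fold lower in WT and 2.78-fold lower in KO, and both lipid A arrays were below both vehicle arrays. The genotypes differed by 1.26-fold under vehicle and by 1.09-fold under lipid A, which is less than the probe set SD. A further probe set gave 647, 252, 748 and 217 in the same order of arrays, or 2.56-fold and 3.44-fold lower with lipid A.

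The other LXR genes were flatter. Nr1h3, which encodes LXRα, gave 242 with vehicle and 314 with lipid A in WT, and 389 and 275 in KO, so that lipid A went with a higher signal in WT and a lower one in KO. It was 1.60-fold higher in KO under vehicle and 1.14-fold lower under lipid A. Apoe, the apolipoprotein that macrophages secrete, lay between 36664 and 48971, with the highest signal in KO vehicle. Mylip, a ubiquitin ligase that removes lipoprotein receptors, lay between 727 and 1064. Lpcat3, which puts polyunsaturated chains on phospholipids, lay between 1288 and 1967, and its largest log2 difference, 0.35, was the smallest among the LXR genes.

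Set side by side, the 17 synthesis enzymes and the 6 LXR and efflux genes had these medians. With lipid A these were -0.18 and -0.090 in WT and -0.32 and -0.30 in KO, a gap of -0.093 and -0.022. For KO over WT they were 0.093 and 0.33 under vehicle and -0.012 and -0.033 under lipid A, a gap of -0.24 and 0.021. No test of these gaps was possible. The LXR and efflux median hides members that lay far apart, since in WT it spans -1.26 for Abcg1 to 0.89 for Abca1 and in KO -1.47 to 1.03. Over the settings run, the vehicle medians of both groups crossed 0, lying between -0.28 and 0.12 for synthesis and between -0.036 and 0.33 for LXR and efflux.

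Of the fatty acid synthesis genes, among which Fasn and Scd1 are classical SREBP-1c and LXR targets in liver, Fasn and Scd2 were lower with lipid A and Scd1 was higher in KO. Fasn, which makes palmitate, gave 933 with vehicle and 431 with lipid A in WT, and 981 and 613 in KO. It was 2.16-fold lower with lipid A in WT and 1.60-fold lower in KO, and KO exceeded WT by 1.42-fold under lipid A. Both lipid A arrays lay below both vehicle arrays, and Fasn has 1 probe set.

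Scd2, a desaturase that makes monounsaturated fatty acids, gave 7207 with vehicle and 3379.7 with lipid A in WT, and 6722 and 1415 in KO. It had the largest log2 difference of any member, -2.25 with lipid A in KO, or 4.75-fold, beside -1.09 in WT, or 2.13-fold. KO lipid A was the lowest array by 2.39-fold against WT lipid A, while the vehicle arrays differed by 1.07-fold. A further probe set gave 492, 239, 484 and 161, which is 2.06-fold lower with lipid A in WT and 3.01-fold in KO, but 1.49-fold lower in KO under lipid A. Scd1, its relative, gave 602 with vehicle and 476 with lipid A in WT, and 962 and 1036 in KO. Both KO arrays were above both WT arrays, by 1.60-fold under vehicle and 2.17-fold under lipid A. In a further probe set of Scd1 the KO arrays were higher by 1.34-fold and 1.29-fold, with 198, 129, 266 and 166. There KO lipid A lay below WT vehicle, and lipid A went with a 1.60-fold lower signal in KO, where the brightest probe set was slightly higher. The direction of the KO response of Scd1 thus rests on the choice of probe set.

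The response to lipid A in KO minus that in WT passed 2-fold for 3 members, all lower, namely Tm7sf2, Dhcr7 and Scd2. Over all detected genes 12.2% were past 2-fold higher and 17.0% lower on this measure, with a median of -0.11, so that 3 of 30 is below the background. The log2 differences of responses were -1.41 for Tm7sf2, -1.08 for Dhcr7 and -1.16 for Scd2. The next on the lower side were Nr1h3 at -0.87 and Pmvk at -0.77, and the highest were Hmgcs1 at 0.62 and Mvk at 0.60. The transporters lay near 0 with 0.14 for Abca1 and -0.21 for Abcg1. By role the medians were -0.0013 for the synthesis enzymes and -0.10 for the LXR and efflux genes. Both responses use separate arrays, but there is 1 array in each condition, and the differences were not tested.

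**Figure D3:**
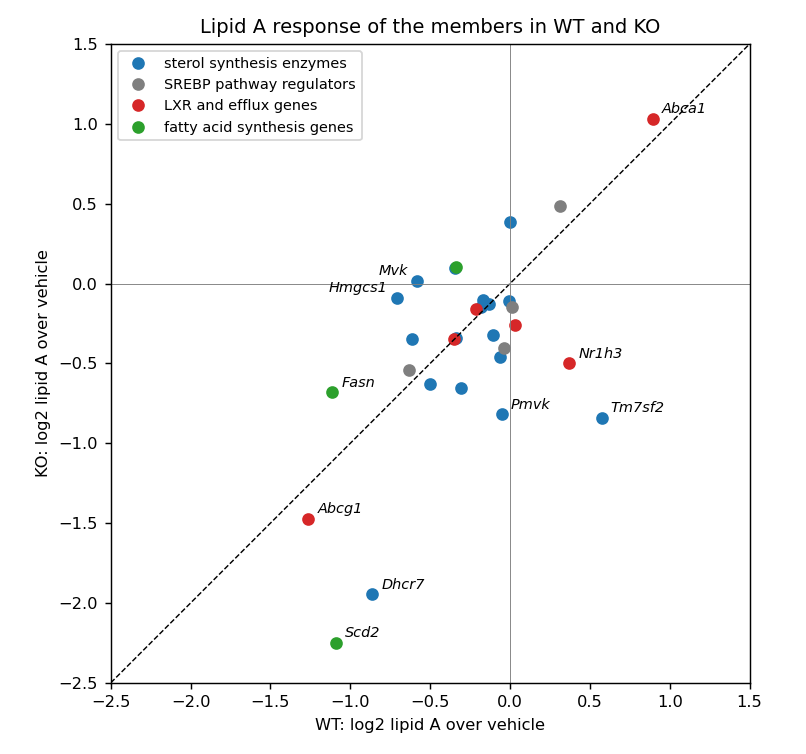
Log2 lipid A over vehicle in WT (x axis) and in KO (y axis) for the 30 members, coloured by role, with the dashed line marking equal responses. Scd2, Dhcr7 and Tm7sf2 lie furthest below the line, Hmgcs1 and Mvk lie above it, and Abca1 and Abcg1 lie close to it at opposite ends.

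Further probe sets gave a check of these values for some members. The 30 genes have 60 probe sets, 13 genes having 1 and 17 having several, and 19 further probe sets of 14 genes reached the median on all 4 arrays. Of these 19, the sign of the log2 difference matched that of the brightest probe set in 17 for lipid A in WT, 13 for lipid A in KO, 11 for KO over WT under vehicle and 15 for KO over WT under lipid A. The median size of the gap was 0.095, 0.28, 0.29 and 0.32, and the largest was 1.52, for Sc5d with lipid A in WT. That probe set of Sc5d gave 487 and 155 in WT and 554 and 179.8 in KO, over 3-fold lower with lipid A in both genotypes, where the brightest one differed by 1.09-fold in each. Sc5d is thus a member whose result rests on the choice of probe set.

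Hmgcs1 was read by 4 probe sets that reached the median on all arrays. They gave log2 differences with lipid A of -0.97 to -0.64 in WT and of -0.27 to 0.19 in KO, and all were higher in KO than in WT under lipid A, by 0.31 to 0.53. Under vehicle they ran from -0.85 to 0.15. Idi1 was less even, since its second probe set went from 2858 to 1759 with lipid A in WT, where the brightest showed no difference, and gave 2042 and 2184 in KO. Lss likewise gave 454 and 252 in WT in its second probe set. The 2 further probe sets of Abca1 were dim, with 319, 326, 34.5 and 202 in one and 127, 181, 4.05 and 29.1 in the other, 3 of the 4 KO signals being below the array median. In both, KO was below WT under each treatment. Lipid A was above vehicle in each genotype, but by only 1.02-fold in WT in the first. In both probe sets the KO ratio started from a vehicle signal below the array median.

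**Figure D4:**
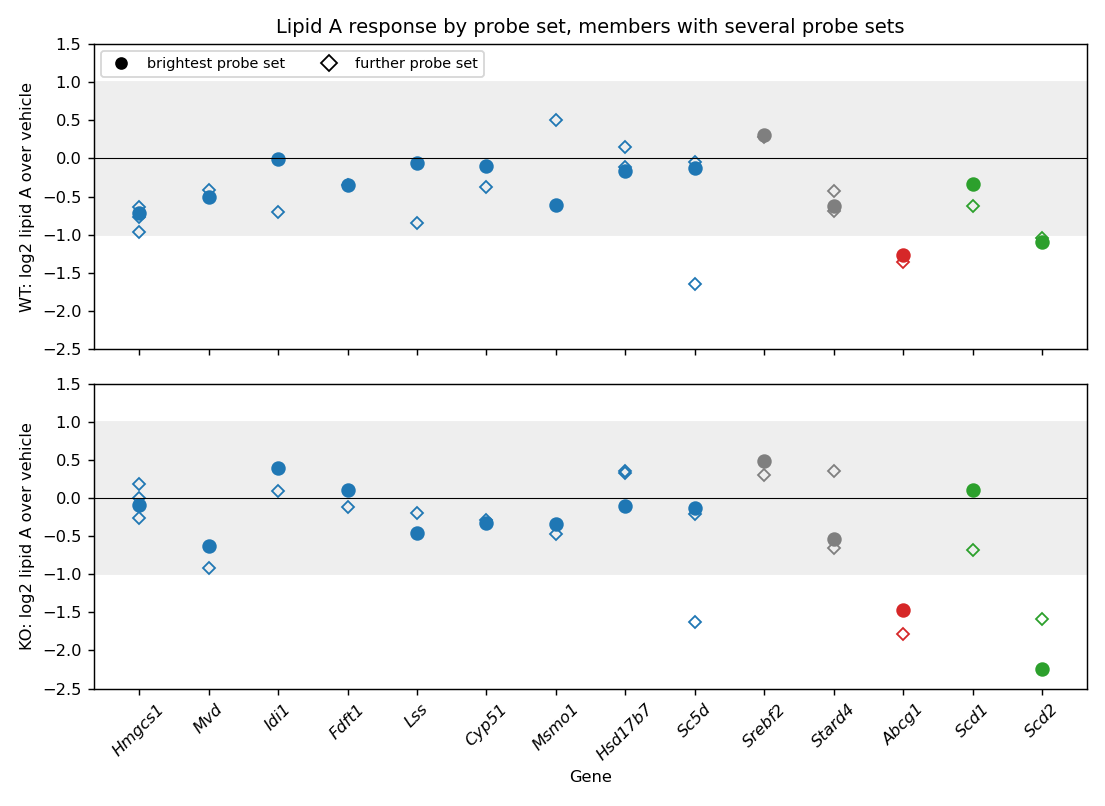
Log2 lipid A over vehicle in WT (upper panel) and KO (lower panel) for the 14 members with more than 1 probe set at or above the median on all 4 arrays, with filled circles for the brightest probe set and open diamonds for the others, coloured by role as in the other plots. The diamonds of Abcg1, Srebf2 and Hmgcs1 lie near their circles, while 1 diamond of Sc5d lies 1.52 below its circle in WT and 1.49 below it in KO.

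Other genes of the same pathways, 34 measured of a list of 43, gave a wider range. In WT, 2 of 32 detected genes (6.25%) passed 2-fold upwards with lipid A and 0 downwards, against 11.8% and 8.94% of all genes, with a median of -0.19. In KO 1 was higher (3.12%) and 7 were lower (21.9%), against 11.2% and 16.0%, with a median of -0.68 beside -0.20 for all genes. Between the genotypes 1 was higher in KO and 0 were lower under vehicle, against 11.1% and 6.17% of all genes, and 2 were higher and 3 lower (6.25% and 9.38%) under lipid A, against 10.6% and 10.3%. Ch25h, whose enzyme makes an oxysterol that holds back SREBP, gave 66.4 with vehicle and 198 with lipid A in WT, and 62.8 and 755 in KO. With lipid A it was 2.98-fold higher in WT and at least 8.97-fold higher in KO, a bound taken against the array median, and 3.82-fold higher in KO than in WT under lipid A. Nceh1, a hydrolase of cholesterol esters, gave 9790.4, 5158, 11100 and 1855 in the same order, 1.90-fold lower with lipid A in WT and 5.98-fold lower in KO, and KO lipid A was the lowest array in each of its 3 probe sets. Elovl6, a fatty acid elongase, gave 144 and 289 in the vehicle arrays of WT and KO and 58.1 with lipid A in KO. By this brightest probe set it was at least 3.81-fold lower with lipid A in KO, whereas a further probe set went from 190 to 78.1 there, or 2.43-fold. Acss2, which makes acetyl-CoA from acetate, gave 527 and 202 in the lipid A arrays of WT and KO, a ratio of 2.61 with KO the lower. Cyp7b1, an oxysterol hydroxylase, passed 2-fold in WT only from a background signal of 8.64 to 107, at least 1.64-fold against the array median in that probe set. Its further probe sets were below the median on both WT arrays and differed in direction, going from 7.38 to 4.42 and from 28.5 to 54.5. Apoc1, an apolipoprotein gene known as an LXR target, gave 32.8 in WT vehicle and 153 in KO vehicle, at least 2.35-fold, and Pltp, which moves phospholipids between lipoproteins, gave 2033 and 3217 there, or 1.58-fold.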

How the data were processed

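Signals were measured in WT and KO macrophages under vehicle and lipid A, on 1 array each. The authors deposited 1 table of linear probe set intensity values (software: not given in the sources used here). Each array had a mean of 500.004 after 2% of its values were trimmed at either end, from which a scaling to a common mean was inferred, and no further normalization was applied. Of 45101 probe sets, 64 controls were left out, and 34945 of the rest carry 1 gene symbol, 932 several and 9160 none in the platform annotation. The brightest probe set by mean log2 signal stood for each of 18193 genes.

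Log2 ratios were taken between pairs of arrays, and a gene counted as detected where its higher signal reached its array's median. With 1 array per condition no test was made, and the number of arrays limits the precision. Members and lists were chosen with earlier results of these data known. Named genes are all members, with 4 signals for those past 2-fold, the 3 largest differences per comparison of the pathway list, Setdb1 and the cell markers. Signals of other members were added for their roles after their values were seen. Alternatives were other scalings, filters, offsets, probe set rules and folds. Counting was tested on simulated data. Promoters came from RefSeq. Python 3.11.15, numpy 2.4.6, pandas 2.3.3, SciPy 1.17.1 and matplotlib 3.10.9 were used.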

Additional observations from a re-analysis of the deposited data

Results flagged for a closer look

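Tm7sf2 had opposite responses to lipid A in the genotypes, each larger than the spread between probe sets of a gene, with a log2 difference of 0.57 in WT and -0.84 in KO and a difference of responses of -1.41. The WT part depends on the scaling. Centring each array on its median lowers log2 differences with lipid A in WT by 0.20, which puts the WT response of Tm7sf2 below that spread of 0.39. The difference of responses was not tested, since each condition has 1 array, and it rests on 1 probe set.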

How the results depend on the processing

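No member past 2-fold changed direction under any setting run. The count of members higher in KO under vehicle went from 1 to 0, which is Tm7sf2, with arrays centred on their median, with quantile normalization, with centring on genes at or above the median on all 4 arrays, and with log2(signal + 50). Under lipid A the count higher in KO went from 1 (Scd1) to 2 (Mvk and Cyp51) with the mean over probe sets, which averages in dim probe sets, and Scd1 lost its call there at 0.74. That mean also gave Scd2 log2 differences with lipid A of -0.50 in WT and -1.46 in KO, and of -0.71 between the lipid A arrays, so that its calls in WT and between the genotypes were lost, and it gave 2.14 for Abca1 with lipid A in KO and -3.29 between the vehicle arrays. At 1.5-fold the counts were 1 higher and 7 lower for lipid A in WT, 8 lower in KO, 4 higher in KO under vehicle and 3 higher under lipid A. At 3-fold they were 0 lower for lipid A in WT, 0 higher in KO, 0 higher in KO under vehicle and 0 higher and 0 lower under lipid A. Other member counts stayed within 1.5 times of those reported, although the genes behind a count could differ, as with the lost WT call of Scd2. The group medians moved more freely for KO over WT under vehicle, between -0.28 and 0.12 for synthesis and between -0.036 and 0.33 for LXR and efflux, and the synthesis median under lipid A lay between -0.12 and 0.012. Among all genes, the count past 2-fold upwards in the WT response was 1429, and it was 3274 with no filter and 517 with both signals at or above the median. No paired analysis was possible because each condition has 1 array, and no array could be left out.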
